A study of Mus musculus with 18 samples.

Results

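The comparison described here sets cultures of the mouse ovarian cancer line ID8 that carry the label Cd276KO against ID8 control cultures, across all genes. Its members are the 6 libraries that the labels assign to cultured ID8 cells, 3 of each kind, out of 18 libraries in the series. The others come from a second ovarian cancer line, HM-1, 6 from cultures and 6 from tumors grown in the skin of mice, with the same pair of labels. ID8 is an established line that arose from mouse ovarian surface epithelium, and the labels give the strain C57BL6. HM-1 cells come from a B6C3F1 background and were grown in MEM alpha with serum. Both ID8 groups were grown in RPMI 1640 with foetal bovine serum, and no drug or other agent is named for either. Each library is labelled as a biological replicate. How the knockout was made, whether the Cd276KO cells are 1 clone or a pool, and whether the controls went through the same steps is not stated in the labels. Where the libraries of a group are cultures of 1 clone, the p-values measure the spread between cultures and not between clones.

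Cd276 encodes B7-H3, a surface protein of the B7 family, whose members engage receptors on T cells and other immune cells. Many solid tumors carry it, ovarian carcinomas among them. A cultured line holds no immune partner, so its RNA reports what the tumor cells themselves make: secreted factors, matrix, antigen presentation and the interferon state.

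Cd276 RNA did not fall in the libraries labelled Cd276KO. The gene (ENSMUSG00000035914.11) lies on the minus strand of chromosome 9, at 58524298 to 58555437 in GRCm38. Its level, in CPM (a gene's reads per 1000000 gene-assigned reads of its library), was 21.1, 21.1 and 20.6 in the controls and 18.3, 18.8 and 21.0 in the libraries labelled Cd276KO. The groups overlapped. The fitted log2 fold change was -0.04 with a standard error (SE) of 0.0787, and the p-value of the edgeR test, adjusted by Benjamini-Hochberg over all genes as elsewhere below, was 0.692. Counts per gene do not show a small insertion or deletion in a transcript, so they do not check the label in either direction, and every direction below is that of the libraries labelled Cd276KO against control.

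The libraries held 23602885 to 30959773 gene-assigned reads. Markers of the line's tissue of origin were present: 0 of 12 markers of ovarian surface epithelium and mesothelium were without counts, and the markers summed to 3160 to 3440 CPM in control and 4430 to 4630 CPM in libraries labelled Cd276KO. Of the macrophage markers 7 of 12 had no count, among them Adgre1, Tyrobp and Lyz2, and the list summed to at most 3.17 CPM. Of the lymphocyte markers 8 of 10 had no count, Cd3e and Cd4 among them, and the list summed to 4.49 to 5.43 CPM in controls and 1.02 to 1.46 CPM in libraries labelled Cd276KO. Of the endothelial markers 6 of 9 had no count, with Cdh5 and Kdr at 0. Of 6 listed X- and Y-linked markers 5 had no count, the listed Y-linked genes and Tsix. Outside that list 1 gene of chromosome Y had enough reads to be tested and was not called. Mitochondrial RNA took 0.963 to 1.56% of reads. Within a group, libraries differed by more than sampling noise, so none was taken as a repeat of another. In bulk RNA, fewer cells of one state and less RNA per cell cannot be told apart.

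The 2 groups differed in most of the expressed genes, mostly by small amounts. Of 12932 genes tested, 60.7% passed an adjusted p of 0.05: 29.4% were higher and 31.3% lower in libraries labelled Cd276KO, and the median log2 fold change over all tested genes was -0.008. The larger changes leaned to one side. More than 2-fold higher were 385 genes (2.98%), against 1043 (8.07%) more than 2-fold lower, and beyond 4-fold the counts were 102 and 356. Under 1.5-fold were 63.5% of the called genes, and 64.3% of the tested genes had groups that did not overlap. The biological coefficient of variation was 0.0586, so small differences passed the test. A share of called members near these percentages is the background against which the lists below are read.

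The genes lost most completely were of several kinds. Kit, the receptor tyrosine kinase for stem cell factor, had 430 reads over the controls and 0 over the libraries labelled Cd276KO, at least 133-fold lower when 3 reads per group are taken as the limit of detection. Tfpi, an inhibitor of tissue factor in coagulation, went from 435 reads to 2, a ratio of 201 (95% exact interval for counting error 55.4 to 1670). Scara5, a ferritin receptor, stood at 31.5, 30.0 and 34.7 CPM in controls and at 0.822, 0.570 and 0.551 in libraries labelled Cd276KO. Ptx3, a soluble pattern recognition protein, fell from 9.57 ± 0.643 to 0.147 ± 0.152 CPM (SD, n = 3), and the kinesin Kif26b from 16.6 ± 0.579 to 0.200 ± 0.143 CPM. These genes were picked among those with no overlap between the groups, so the gap is part of the choice.

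Fewer genes rose as far. Mef2c, a transcription factor of muscle, neural and vascular development, rose from 0.227 ± 0.0574 to 6.13 ± 0.335 CPM (SD, n = 3), a log2 fold change of 4.82. Rasef, a Rab-type GTPase, stood at 1.38, 1.94 and 1.52 CPM in controls and 23.9, 24.03 and 22.3 CPM in libraries labelled Cd276KO. Gprc5c, an orphan receptor, rose by 3.89 in log2, Spint1, a protease inhibitor of epithelia, by 3.14, F2rl1, the protease-activated receptor cleaved by trypsin-like enzymes, by 3.09, and the neuronal filament gene Prph by 2.88. They too were picked with no overlap between the groups as a condition.

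The direction of change followed the chromosome. Genes of the X chromosome were lower as a block: of 397 tested, 84.1% were lower and 5.79% higher, against 28.7% lower and 30.0% higher among the 11667 genes outside chromosomes X, 16 and 19. The median log2 fold change on X was -0.81 (quartiles -1.09 to -0.52), which is 57.0% of the control level. Chromosome 16 was also low, with 74.6% of 398 genes lower and a median of -0.49 (71.2% of control). Chromosome 19 was high, with 56.5% of 457 genes higher and a median of 0.26 (120% of control).

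The shift was of similar size in each library. Against the control mean, the median X gene stood at -0.74, -0.75 and -0.80 in log2 CPM in the 3 libraries labelled Cd276KO and at 0.01, 0.03 and -0.03 in the controls. For chromosome 16 the libraries labelled Cd276KO gave -0.46, -0.46 and -0.47, and for chromosome 19 they gave 0.23, 0.24 and 0.24. The other 17 autosomes had medians from -0.19 (chromosome 1) to 0.09, with chromosomes 3 (-0.14) and 15 (-0.10) next lowest. In the HM-1 cultures, which share no library with these, the medians for X, 16 and 19 were -0.07, 0.07 and 0.02, while other chromosomes there reached -0.29 and 0.29. The values for X, 16 and 19 were described and not tested. DNA copy number was not measured.

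**Figure D1:**
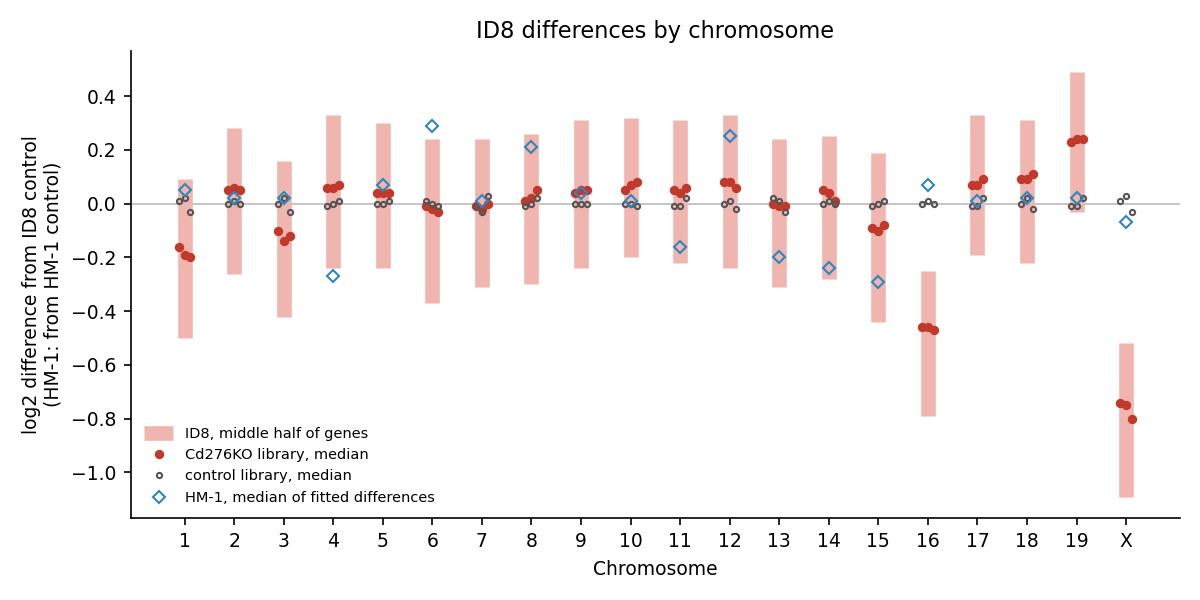
Differences in log2 from ID8 control by chromosome: bars span the quartiles of the fitted fold changes of the tested genes, filled points are the median gene of each library labelled Cd276KO, small open circles that of each control, and diamonds the HM-1 medians against HM-1 control. The 3 filled points lie between -0.80 and -0.74 on X, at -0.46 to -0.47 on 16 and at 0.23 to 0.24 on 19, away from those of the other chromosomes.

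The shift ran along the whole of these chromosomes and was not set by a single stretch. With the tested genes of X split by position into 10 stretches of 39 to 40 genes, medians ran from -0.97 to -0.70, and all 10 were below 0. On chromosome 16 the stretches ran from -0.64 to -0.25, and on 19 from 0.10 to 0.40 with 0 of 10 below 0. Chromosome 1 showed a smaller shift of the same evenness, from -0.25 to -0.10 with 10 of 10 below 0. X and 16 together hold 6.15% of the tested genes, 15.6% of the genes called lower and 18.1% of those more than 2-fold lower. Lists are therefore also counted below without members on X, 16 and 19 where that changes the picture.

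**Figure D2:**
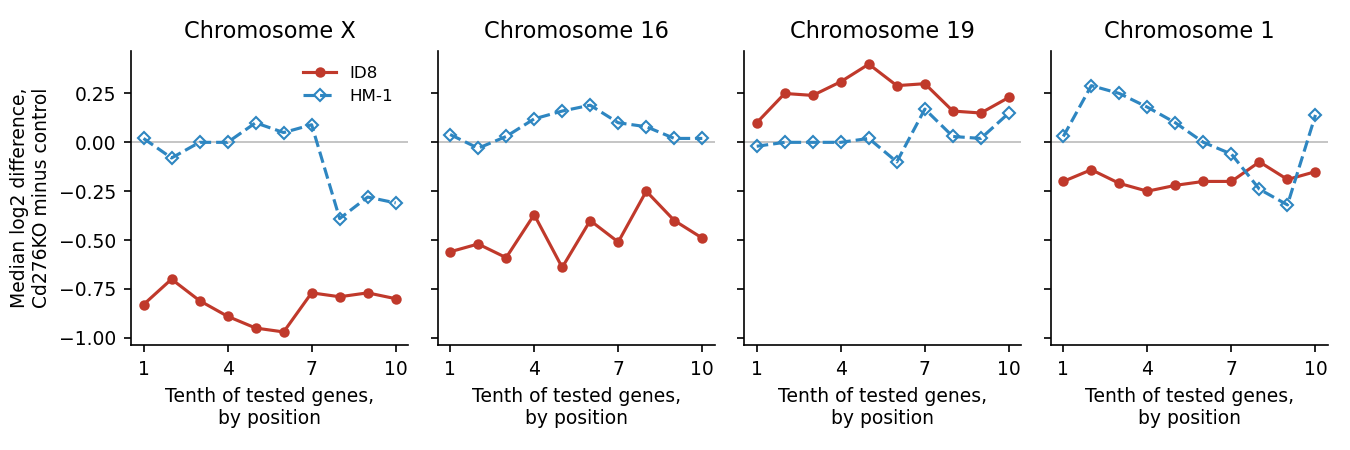
Median log2 fold change of genes grouped by position into 10 stretches of chromosomes X, 16, 19 and 1 (horizontal axis, in order along the chromosome), with ID8 as filled circles and HM-1 as open diamonds. All 10 stretches of X lie between -0.97 and -0.70 and all 10 of chromosome 19 between 0.10 and 0.40 in ID8, while the last 3 stretches of X in HM-1 lie at -0.39 to -0.28.

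Abundant X-linked genes showed the shift at high counts. Pgk1, which makes the glycolytic enzyme phosphoglycerate kinase, stood at 1346, 1355 and 1414 CPM in controls and at 459, 485 and 488 CPM in libraries labelled Cd276KO, which gave -1.45 in log2 (SE 0.0593, adjusted p = 1.42e-15). Bgn, the matrix proteoglycan biglycan, stood at 893, 931 and 921 CPM against 427, 439 and 422 CPM (-1.02). Efnb1, the membrane ligand ephrin-B1, stood at 264, 276 and 300 CPM against 63.9, 64.9 and 67.4 CPM (-2.02). In each, every library labelled Cd276KO was below every control. The ribosomal protein gene Rps4x fell less, from 1559 ± 48.5 to 1059 ± 42.2 CPM (SD, n = 3), by 0.48 on the log2 scale. The actin crosslinker Flna (-0.80) and the membrane-cytoskeleton linker Msn (-0.70) lay near the X median, and the pentose phosphate enzyme G6pdx (-1.12) and the basement membrane collagen Col4a5 (-1.10) just below its lower quartile.

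Genes that escape X inactivation in mouse were looked up after the X shift was seen. Ddx3x, an RNA helicase, did not pass the test at -0.02 (adjusted p = 0.813), while Eif2s3x (-0.27), Kdm6a (-0.40), Utp14a (-0.44) and Kdm5c (-0.91) were lower. Xist, the RNA that coats the inactive X, was present in all 6 libraries. It stood at 249, 252 and 179 CPM in controls and 246, 188 and 145 CPM in libraries labelled Cd276KO, with overlapping groups and a log2 fold change of -0.16 (adjusted p = 0.640). Of its noncoding neighbours that were looked up, Jpx was lower (-0.67, adjusted p = 0.00224) and Ftx did not pass the test (-0.30, adjusted p = 0.183). Some X genes ran the other way: 14 of 397 tested were more than 2-fold higher. That is a share similar to the 342 of 11667 outside X, 16 and 19 and the 2.98% of all tested genes. Those named next were chosen after their values were seen. Bex2, a small signalling adaptor of neural tissue, stood at 3.82, 3.46 and 3.49 CPM in controls and 40.7, 44.4 and 44.5 CPM in libraries labelled Cd276KO, and Fhl1, a LIM-domain protein of muscle, rose by 3.15 in log2.

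**Figure D3:**
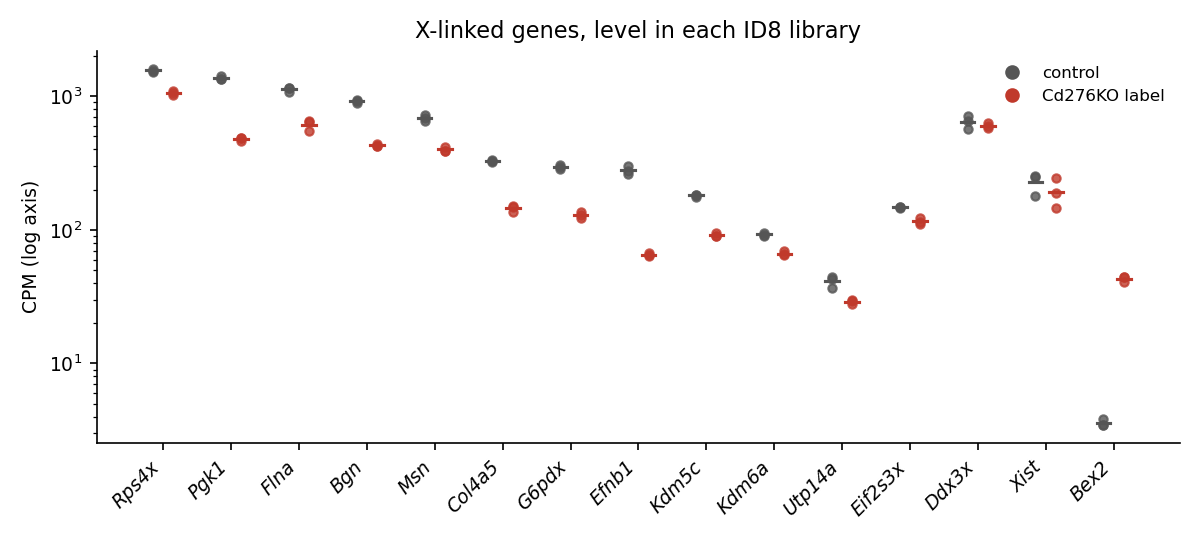
CPM (logarithmic axis) of 15 X-linked genes in each control library and each library labelled Cd276KO, with a line at the group mean. Most genes, such as Pgk1 and Efnb1, are lower in all 3 libraries labelled Cd276KO, Ddx3x and Xist overlap between the groups, and Bex2 is higher.

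Outside X, the most abundant genes of chromosomes 16 and 19 were named after their values were seen. On 16, the translation factor Eif4g1 fell from 1094 ± 26.9 to 815 ± 47.0 CPM (SD, n = 3), the proteasome subunit Psmd2 fell by 0.68 on the log2 scale, and the adenovirus receptor Cxadr by 1.07. On 19, the elongation factor Eef1g stood at 1908, 1921 and 2009 CPM in controls and 2748, 2951 and 2887 CPM in libraries labelled Cd276KO. Scd2, the desaturase that makes monounsaturated fatty acids, went against its chromosome, falling from 4107 ± 217 to 2596 ± 117 CPM.

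Genes of the interferon response were lower at nearly every level of the pathway. Interferons bind paired receptors that signal through Janus kinases to STAT and IRF factors, and these switch on antiviral genes through a promoter element that holds repeats of GAAA. Of 63 listed genes tested, 48 were lower and 5 higher, with a median log2 fold change of -0.84. Without members on X, 16 and 19 the counts were 38 lower and 5 higher of 52, with a median of -0.78.

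Promoters of 3 induced genes are shown because they carry that element and belong to the induced class that was low. Sequences are RefSeq windows around the gene start in GRCm38.p6, of 300 bases of which 250 lie before it, 5′ to 3′ on the gene's strand. Capitals mark GAAA, any 2 bases, then GAAA, on either strand. The windows are chr19:34640639-34640938 on the plus strand for Ifit1 (2 matches), chr3:142620413-142620712 on the plus strand for Gbp2 (1 match) and chr4:156200769-156201068 on the minus strand for Isg15 (3 matches, overlapping).
Ifit1: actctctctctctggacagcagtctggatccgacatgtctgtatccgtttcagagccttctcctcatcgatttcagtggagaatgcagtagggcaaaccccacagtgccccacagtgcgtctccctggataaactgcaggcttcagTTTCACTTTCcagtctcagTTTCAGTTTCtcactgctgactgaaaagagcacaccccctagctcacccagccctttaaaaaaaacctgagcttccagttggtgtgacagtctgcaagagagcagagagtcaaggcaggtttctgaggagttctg
Gbp2: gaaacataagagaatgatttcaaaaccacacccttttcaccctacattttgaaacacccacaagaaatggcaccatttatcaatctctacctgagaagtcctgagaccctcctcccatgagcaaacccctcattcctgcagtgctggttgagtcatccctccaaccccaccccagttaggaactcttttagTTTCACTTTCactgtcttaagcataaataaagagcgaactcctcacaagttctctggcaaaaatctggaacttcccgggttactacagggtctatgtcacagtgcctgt
Isg15: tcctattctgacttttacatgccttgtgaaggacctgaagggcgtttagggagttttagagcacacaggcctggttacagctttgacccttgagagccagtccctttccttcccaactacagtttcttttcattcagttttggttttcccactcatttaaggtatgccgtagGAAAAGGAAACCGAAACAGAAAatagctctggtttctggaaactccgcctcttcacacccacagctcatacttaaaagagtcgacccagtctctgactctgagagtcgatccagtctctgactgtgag

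The element was found in 45.2% of windows of the listed induced genes (19 of 42), in 2.91% of windows of tested genes and in 3.44% of the 32841 windows in the table. Among induced genes it was in 37.9% of windows of those called lower (11 of 29) and in 3 of the 5 windows of those tested and not lower. It was in 6.31% of windows of all genes more than 2-fold lower and in 1.84% of those more than 2-fold higher. A match is a description of letters and not of binding.

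Sensors and adaptors fell further than receptors and kinases: 4 of 9 were more than 2-fold lower, against 0 of 7. Of 9 sensors and adaptors 7 were lower: the DNA sensor Ifi204 fell from 50.6 ± 2.74 to 14.1 ± 1.41 CPM (SD, n = 3), and the RNA sensors Ddx58 and Ifih1 by 1.20 and 1.21 on the log2 scale. The DNA sensor Cgas was higher, at 12.3, 13.5 and 11.5 CPM in controls and 22.7, 23 and 19.96 CPM in libraries labelled Cd276KO. Of 7 receptors and kinases 5 were lower. Ifnar1, a chain of the type I receptor, stood at 69.8, 71.0 and 68.6 CPM against 36.2, 37.8 and 35.4 CPM, its partner Ifnar2 fell by 0.74 and Jak2 by 0.95 on the log2 scale. Ifnar1, Ifnar2 and Ifngr2 lie on chromosome 16, and without members on X, 16 and 19 only 1 of 3 in this class was lower. Jak2 lies on chromosome 19, whose median was above 0.

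The induced genes fell furthest. Of 30 antiviral effectors 26 were lower, 20 of them by more than 2-fold, with a median of -1.82. Ifitm3, which blocks viral entry at membranes, stood at 49.8, 44.0 and 58.9 CPM in controls and 9.63, 9.93 and 9.96 CPM in libraries labelled Cd276KO (-2.29). Ifi27 fell from 14.9 ± 1.78 to 3.39 ± 0.509 CPM (SD, n = 3), and Ifit1, an RNA-binding effector, from 1.13 ± 0.321 to 0.0526 ± 0.0279 CPM. The ubiquitin-like modifier Isg15 fell by 1.29 on the log2 scale. Rnf213, a large ubiquitin ligase, was the one called higher, at 0.52, and lost its call without control replicate 3 (adjusted p = 0.0816). Of the guanylate-binding proteins and immunity-related GTPases 5 of 6 were lower, led in level by Irgm1 and Gbp2. Gbp2 stood at 5.83, 5.46 and 5.17 CPM against 0.560, 0.427 and 0.678 CPM. Among 7 transcription factors 4 were lower, among them Irf7 (-2.41) and Irf1 (-0.55). The Oas, Gbp and Ifi20x families have near-identical copies, so the split of reads among their members is uncertain.

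Most genes of antigen presentation were lower, while surface ligands were split. Of 20 genes of MHC class I presentation 14 were lower and 2 higher, with a median of -0.54. Tapbp, which loads peptide, stood at 183, 181 and 197 CPM in controls and 78.6, 80.5 and 87.7 CPM in libraries labelled Cd276KO, and the peptide trimmer Erap1 fell by 1.17 on the log2 scale. The light chain B2m fell from 243 ± 4.62 to 168 ± 6.36 CPM (SD, n = 3) and the nonclassical heavy chain H2-T23 by 1.32 on the log2 scale. H2-K1, a classical heavy chain, was higher, at 40.0, 36.3 and 43.0 CPM against 59.9, 60.5 and 65.7 CPM. Reads of class I genes can be shared among close copies. Of 10 B7 family and related ligands tested, 2 were lower and 3 higher: Ulbp1, a ligand of an activating natural killer receptor, fell by 1.65 and Cd47, the signal against phagocytosis on chromosome 16, by 0.54 on the log2 scale. H60b, another natural killer ligand, went from 3 reads in the controls to 73, a ratio of 26.3 (95% exact interval for counting error 8.64 to 130).

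Glycolysis and hypoxia genes were lower with few exceptions. Hypoxia-inducible factors turn these genes on when oxygen is low, through an element with the core ACGTG, while prolyl hydroxylases mark the factors for destruction. Of 56 genes tested 44 were lower and 7 higher, with a median of -0.51. Without members on X, 16 and 19 the counts were 39 lower and 6 higher of 49.

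Promoters of 3 genes of this list are shown because they hold the hypoxia core and their RNA was low. Capitals mark ACGTG on either strand, in windows made as above. They are chr7:138909457-138909756 on the minus strand for Bnip3 (2 matches, overlapping), chrX:106186850-106187149 on the plus strand for Pgk1 (2 matches) and chr7:46845554-46845853 on the plus strand for Ldha (5 matches, some overlapping).
Bnip3: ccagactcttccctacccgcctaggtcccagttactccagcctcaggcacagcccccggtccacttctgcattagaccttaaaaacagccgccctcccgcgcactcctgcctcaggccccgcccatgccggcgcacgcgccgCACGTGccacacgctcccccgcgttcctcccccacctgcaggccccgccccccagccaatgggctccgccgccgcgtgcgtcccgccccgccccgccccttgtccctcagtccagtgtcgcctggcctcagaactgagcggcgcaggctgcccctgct
Pgk1: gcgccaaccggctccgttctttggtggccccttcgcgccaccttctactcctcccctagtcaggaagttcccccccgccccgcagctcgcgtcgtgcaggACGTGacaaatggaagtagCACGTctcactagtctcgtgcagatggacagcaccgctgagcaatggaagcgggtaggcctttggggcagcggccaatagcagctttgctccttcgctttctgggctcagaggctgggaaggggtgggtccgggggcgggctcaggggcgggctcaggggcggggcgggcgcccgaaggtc
Ldha: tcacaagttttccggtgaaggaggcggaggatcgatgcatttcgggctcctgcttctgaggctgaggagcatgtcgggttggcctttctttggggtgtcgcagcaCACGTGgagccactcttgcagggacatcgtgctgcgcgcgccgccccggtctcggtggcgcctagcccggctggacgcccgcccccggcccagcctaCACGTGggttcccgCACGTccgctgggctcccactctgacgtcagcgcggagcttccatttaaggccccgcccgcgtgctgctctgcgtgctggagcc

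The core was found in 46.5% of windows of the listed genes (33 of 71), in 45.9% of those called lower (28 of 61), in 25.5% of windows of tested genes and in 19.6% of all windows. Windows of genes more than 2-fold lower held it in 21.1% and those of genes more than 2-fold higher in 49 of 326. Promoters of the strongly changed genes were also poorer in CpG: the median observed-over-expected ratio was 0.545 for genes more than 2-fold lower, 0.623 for those more than 2-fold higher and 0.768 for genes not called.

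Of 17 glycolytic enzymes 15 were lower and 1 higher. Ldha, the enzyme that turns pyruvate into lactate, stood at 1647, 1685 and 1805 CPM in controls and 898, 963 and 970 CPM in libraries labelled Cd276KO (-0.78). The muscle-type phosphofructokinase Pfkm fell by 1.32 and the hexokinase Hk1 by 0.99 on the log2 scale. Among the most abundant enzymes Pkm fell from 2710 ± 198 to 2152 ± 139 CPM (SD, n = 3), and Gapdh did not pass the test, at 4678 ± 446 and 4633 ± 246 CPM. Without control replicate 3 Gapdh was called higher by 0.16 (adjusted p = 0.0274). All 8 kinases that set glycolytic flux were lower. Of 4 glucose and lactate transporters 2 were lower and 2 higher, with a median of -0.04, and the lactate exporter Slc16a3 fell by 0.99 on the log2 scale.

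Among other hypoxia genes 14 of 18 were lower. Vegfa, the angiogenic growth factor, stood at 118, 109 and 110 CPM in controls and 44.2, 45.4 and 47.8 CPM in libraries labelled Cd276KO. Ak4, a mitochondrial adenylate kinase, fell by 3.12, the collagen prolyl hydroxylase P4ha2 by 1.60 and Ddit4, a brake on mTOR signalling, by 1.25 on the log2 scale. Of 9 hypoxia-inducible factors and their regulators 5 were lower and 2 higher, with a lowest log2 fold change of -1.93. The factor Hif1a fell only by 0.27. Egln3, a prolyl hydroxylase that is itself a hypoxia target, ran against the group, at 11.7, 11.8 and 12.1 CPM against 31.4, 32.9 and 33.4 CPM.

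Nuclear-encoded respiratory genes were slightly higher. Of 63 genes of mitochondrial respiration 29 were higher and 8 lower, with a median of 0.15, but 10 were called higher when all 12 culture libraries entered the fit. The complex I genes Ndufs8 (0.69), Ndufb8 (0.57) and Ndufv1 (0.47), among the higher ones, lie on chromosome 19. The complex I gene Ndufa1, on X, fell by 0.68 on the log2 scale. None of the 9 tested genes of mitochondrial DNA was called. In mt-Co1 the libraries varied widely within both groups, at 7381, 6906 and 4735 CPM and at 6572, 4187 and 4749 CPM. Cholesterol and fatty acid synthesis leaned low, with 28 of 43 lower and a median of -0.26, and the malic enzyme Me1, which supplies NADPH, fell from 484 ± 7.07 to 254 ± 5.20 CPM (SD, n = 3).

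Extracellular matrix genes fell in most of the classes counted: of 77 tested, 52 were lower and 14 higher, with a median of -0.68. Fibrillar collagens give tissue its tensile strength, while laminins and type IV collagen build the basement membrane under epithelia. All 7 fibrillar collagens tested were lower, each by more than 2-fold, with a median of -3.49. Col3a1 stood at 143, 124 and 139 CPM in controls and 13.9, 15.2 and 15.8 CPM in libraries labelled Cd276KO (-3.10), and Col5a1 at 164, 154 and 160 CPM against 17.4, 17.4 and 17.7 CPM (-3.11). Col1a1 fell less, from 293 ± 22.5 to 138 ± 8.38 CPM (SD, n = 3).

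Most matrix glycoproteins fell with the collagens: 14 of 19 were lower and 5 higher. Spp1, the secreted phosphoprotein osteopontin, was the most abundant of them, at 3379, 3349 and 3452 CPM in controls and 1098, 1131 and 1141 CPM in libraries labelled Cd276KO (-1.52, SE 0.0588, adjusted p = 5.03e-16). Fn1, fibronectin, stood at 1709, 1433 and 1556 CPM against 776, 751 and 578 CPM, and Thbs1, an adhesive glycoprotein that activates TGF-beta, at 274, 265 and 262 CPM against 58.9, 58.5 and 56.9 CPM. None of these groups overlapped. The microfibril proteins Fbn1 (-4.96) and Emilin1 (-3.85) fell, and Fbn2 had no read left in libraries labelled Cd276KO, at least 11.4-fold lower. The small proteoglycan Dcn went the other way, at 98.3, 98.8 and 99.7 CPM against 218, 222 and 219 CPM, and the elastic fibre protein Fbln5 rose by 2.30 in log2. Sparc was called higher by 0.17, a call lost under 6 of the alternatives, with adjusted p up to 0.173.

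Basement membrane genes were mixed, with 8 of 15 lower and 4 higher. Lama1, the laminin chain of early embryonic basement membranes, had 100 reads in controls and none in libraries labelled Cd276KO, at least 30.9-fold lower. Col4a2 fell by 0.59 on the log2 scale, while the laminin chain Lamb1 (0.27) was higher. Of 20 proteases and inhibitors 15 were lower and 3 higher: Timp3 fell from 150 ± 7.89 to 28.4 ± 4.43 CPM (SD, n = 3) and the gelatinase Mmp2 by 1.48 on the log2 scale, and the inhibitor Timp2 rose by 0.77 in log2. Crosslinking enzymes were lower in 5 of 10 and higher in 1. Lox, which crosslinks collagen, stood at 354, 374 and 356 CPM against 149, 157 and 162 CPM, and the collagen prolyl hydroxylase P4ha3 went from 512 reads to 3, a ratio of 158 (95% exact interval for counting error 53.8 to 769). The collagen chaperone Serpinh1 did not pass the test (-0.15, adjusted p = 0.0612), and was called lower without control replicate 2 (0.00586).

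Fibroblast markers summed to 507 to 570 CPM in controls and 373 to 388 CPM in libraries labelled Cd276KO. Of 12 markers 3, Lum, Thy1 and Fap, had no count in any library, and Dcn rose while Col1a1, Col1a2, Col3a1 and Pdgfra fell. The part of cell composition in the matrix values was not tested. Integrins, the receptors of this matrix, were lower in 7 of 13 and higher in 4. The fibronectin receptor chain Itga5 fell from 220 ± 1.52 to 112 ± 3.59 CPM (SD, n = 3), and Itgb4, the laminin receptor chain of hemidesmosomes, stood at 3.39, 2.20 and 2.89 CPM in controls and 12.3, 11.5 and 9.96 CPM in libraries labelled Cd276KO.

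**Figure D4:**
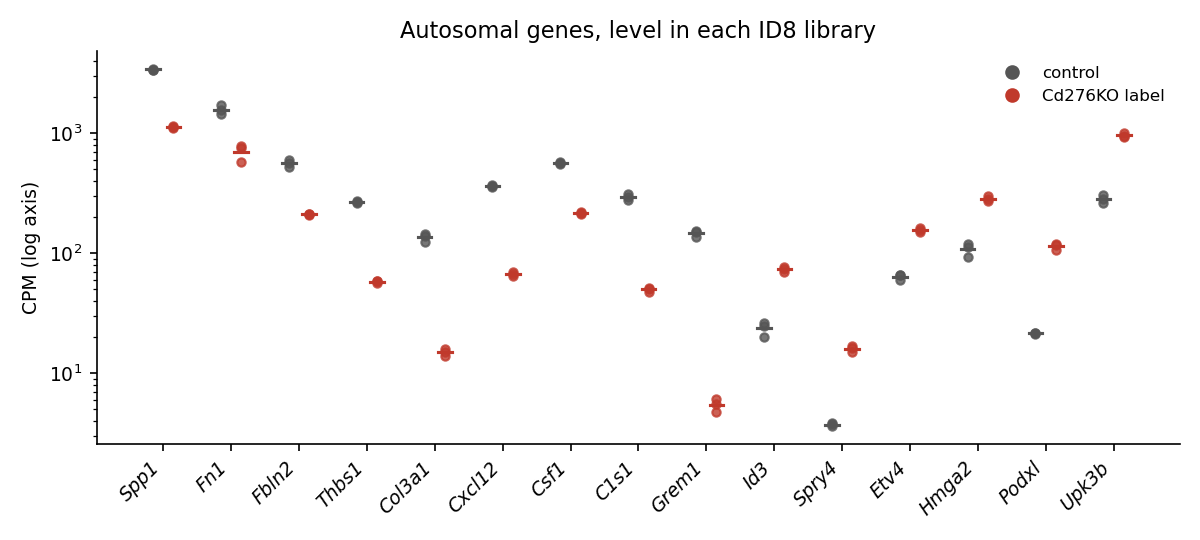
CPM (logarithmic axis) of 15 autosomal genes in each control library and each library labelled Cd276KO, with a line at the group mean. Spp1, Fn1, Fbln2, Thbs1, Col3a1, Cxcl12, Csf1, C1s1 and Grem1 are lower in all 3 libraries labelled Cd276KO, and Id3, Spry4, Etv4, Hmga2, Podxl and Upk3b are higher, with no overlap between the groups.

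Complement and factors that act on myeloid cells were lower. All 6 complement components tested fell, with a median of -2.21. C1s1, the protease that starts the classical pathway, stood at 313, 296 and 278 CPM in controls and 50.6, 51.3 and 47.8 CPM in libraries labelled Cd276KO. C3, the central component, fell by 1.92 on the log2 scale. The membrane regulator Cd55 rose from 52.3 ± 3.07 to 126 ± 10.1 CPM (SD, n = 3).

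Among chemokines and cytokines 23 of 33 were lower and 5 higher. Cxcl12, the ligand of CXCR4, stood at 371, 357 and 362 CPM in controls and 70.1, 67.6 and 65.1 CPM in libraries labelled Cd276KO (-2.35). Csf1, the growth factor of macrophages, stood at 553, 567 and 575 CPM against 213, 215 and 222 CPM (-1.31), and Il34, which binds the same receptor, fell by 1.20 on the log2 scale. The monocyte attractant Ccl9 fell from 7.17 ± 1.19 to 0.660 ± 0.278 CPM (SD, n = 3), and the neutrophil attractant Cxcl1 went from 230 reads to 3, a ratio of 71.0 (95% exact interval for counting error 24 to 347). The membrane-bound chemokine Cx3cl1 rose by 1.08 in log2. Cytokine receptors fell in 8 of 10, Il6ra by 2.28 and Il4ra by 1.29 on the log2 scale. The NF-kB list was less one-sided, with 14 of 29 lower and 8 higher. In it the acute phase gene Saa3 had no read left, at least 18.2-fold lower, and the prostaglandin synthase Ptgs2 fell by 1.09 on the log2 scale, while the adhesion molecule Icam1 rose by 0.81 in log2.

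Feedback inhibitors of ERK signalling were higher. ERK kinases, driven by receptor tyrosine kinases, induce their own inhibitors, among them Sprouty proteins and dual-specificity phosphatases. Of 10 such genes 9 were higher and 1 lower, with a median of 0.56. Spry4 stood at 3.75, 3.81 and 3.65 CPM in controls and 16.1, 16.9 and 14.96 CPM in libraries labelled Cd276KO, and Dusp6, the phosphatase of ERK, at 199, 201 and 193 CPM against 312, 312 and 325 CPM. Transcription factors downstream of ERK were split, with 3 of 11 higher and 2 lower. Etv4 stood at 59.7, 66.2 and 65.3 CPM against 155, 151 and 163 CPM, while the immediate early gene Egr1 stood at 50.2, 47.5 and 51.6 CPM against 9.97, 9.33 and 9.02 CPM. Groups did not overlap for any of these 4 genes.

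Receptor kinases themselves leaned low, with 12 of 23 lower and 6 higher. Besides Kit, the ephrin receptor Ephb4 fell from 9.55 ± 0.379 to 0.556 ± 0.144 CPM (SD, n = 3), Fgfr2 by 2.15 and Met, the receptor of hepatocyte growth factor, by 0.56 on the log2 scale. Flt1, a receptor of VEGF, was higher, at 27.1, 27.3 and 25.6 CPM against 69.5, 70.4 and 64.3 CPM. Of 23 growth factors 12 were lower and 6 higher. Igf1 fell from 30.6 ± 1.89 to 7.78 ± 0.711 CPM and Fgf5 by 5.39 on the log2 scale. The EGF-family ligands Btc (0.92) and Hbegf (1.04) and the Kit ligand Kitl (0.64) were higher.

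In the TGF-beta and BMP pathway most listed targets rose, and secreted inhibitors leaned low. Secreted antagonists such as Grem1 bind BMPs before these reach their receptors, whose Smads switch on the Id genes. Grem1 stood at 151, 154 and 137 CPM in controls and 6.05, 5.59 and 4.75 CPM in libraries labelled Cd276KO (-4.67, SE 0.0836, adjusted p = 6.26e-22). Of 8 secreted inhibitors 5 were lower and 2 higher, Fst among the higher at 0.94. Of 6 targets 4 were higher and none lower. Id3 stood at 24.6, 20.2 and 26.0 CPM against 77.0, 74.4 and 70.2 CPM, and Id1 rose from 45.3 ± 2.21 to 109 ± 5.68 CPM (SD, n = 3). The ligands leaned low, with 8 of 12 lower, Bmp2 by 1.39 and Bmp4 by 0.68 on the log2 scale, and Gdf6 (0.70) and Tgfb1 (0.86) were higher. Of 8 Smads 6 were higher and 2 lower: the inhibitory Smad7 rose by 0.85 in log2, and Smad1 had 87 reads in controls and 0 in libraries labelled Cd276KO, at least 26.9-fold lower.

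Wnt receptors were lower in 9 of 12 and higher in 2. Fzd7 stood at 44.9, 46.1 and 44.3 CPM in controls and 21.1, 18.9 and 21.0 CPM in libraries labelled Cd276KO, and the R-spondin receptor Lgr4 fell by 0.60 on the log2 scale. Wnt ligands were split, with 5 of 11 lower and 4 higher: Wnt5a fell from 66.3 ± 2.13 to 22.4 ± 0.599 CPM (SD, n = 3) and Wnt9a rose by 1.11 in log2. In the Notch list 5 of 10 were higher and 4 lower. The ligand Jag2 stood at 1.46, 2.20 and 2.39 CPM against 9.56, 8.83 and 10.5 CPM, and the receptor Notch3 at 10.6, 9.66 and 11.02 CPM against 3.25, 2.53 and 2.54 CPM. Axon guidance genes, which also guide migrating epithelial and endothelial cells, were lower in 19 of 35 and higher in 8. Slit2 (-4.28) and the semaphorin receptors Plxnd1 (-2.24) and Plxna1 (-1.06) fell, while Slit3 (1.64) and the Slit receptors Robo1 (2.43) and Robo2 (2.66) were higher. Both Robo genes lie on chromosome 16, against the direction of that chromosome.

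In cyclic AMP signalling 10 of 25 genes were lower and 5 higher. The cyclase Adcy7 (-1.38) and the regulatory subunit Prkar2b of protein kinase A (-1.67) fell, the phosphodiesterase Pde10a had no read left, at least 19.4-fold lower, and Pde3b rose by 1.37 in log2.

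**Figure D5:**
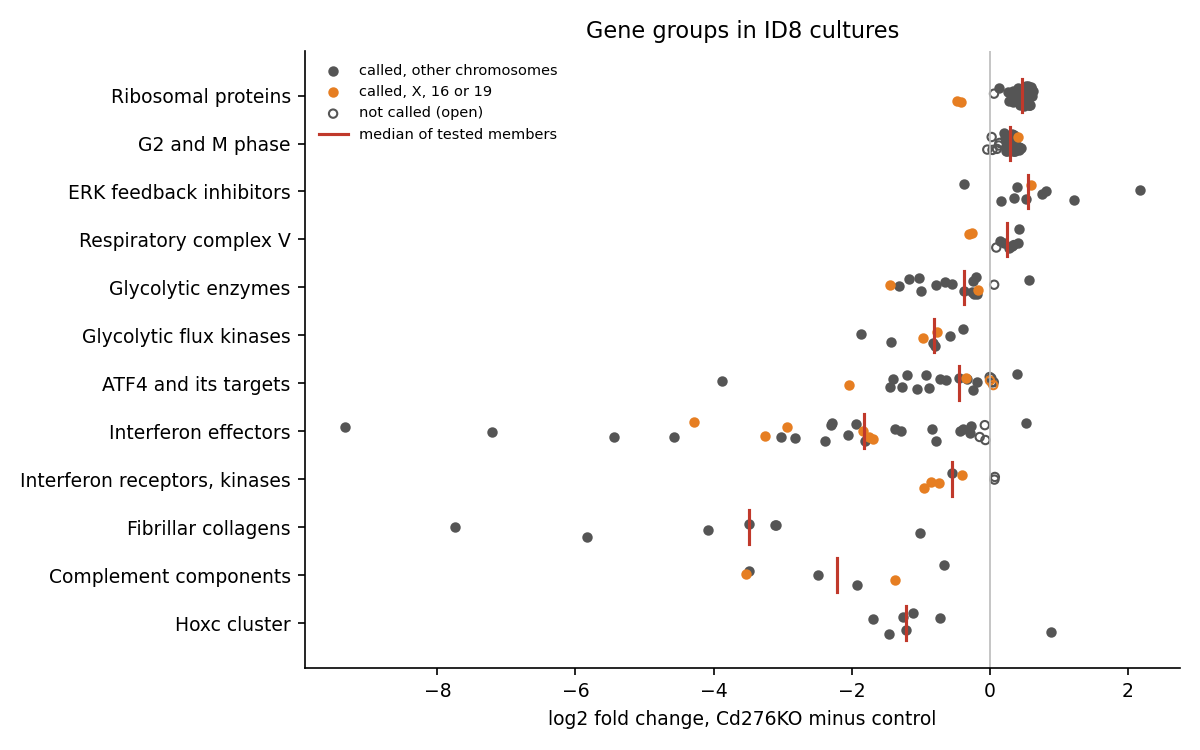
Log2 fold change of each tested member in 12 gene groups (horizontal axis, Cd276KO over control), with members on chromosomes X, 16 and 19 in orange, genes that did not pass the test as open points and the group median as a red line. Fibrillar collagens (median -3.49), complement components (-2.21) and antiviral effectors (-1.82) lie to the left, and ERK feedback inhibitors (0.56) and ribosomal proteins (0.46) to the right.

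Genes of the epithelial and mesenchymal state were split, with 14 of 40 higher and 15 lower and a median of 0.04, and the classes within the list differed. Of 8 mesenchymal factors 7 were lower: Snai2 stood at 19.5, 19.4 and 17.02 CPM in controls and 4.74, 5.62 and 3.81 CPM in libraries labelled Cd276KO, and Snai1, Tcf4 and Zeb1 fell by 0.95, 0.99 and 0.53 on the log2 scale. Prrx1 was higher at a low level (0.445 and 0.879 CPM), a call lost without control replicate 3 (adjusted p = 0.0768) or without the third library labelled Cd276KO (0.0718). Without Snai2, which lies on chromosome 16, 6 of 7 were lower. Of 7 tight junction genes 5 were higher and 1 lower, and of 7 desmosome genes 3 were higher and 1 lower. The desmosome plaque protein Dsp stood at 9.43, 10.4 and 10.1 CPM against 33.6, 33.9 and 32.9 CPM, and Perp rose by 1.14 in log2. The 1 desmosome gene called lower fell by more than 2-fold, and the lowest log2 fold change in that class was -2.69. Of 8 cadherins and their partners 2 were higher and 3 lower, 2 of them by more than 2-fold, with a lowest log2 fold change of -2.24. Of 6 intermediate filaments 1 was higher and 2 lower. The epithelial keratin Krt18 rose from 398 ± 20.9 to 648 ± 34.4 CPM (SD, n = 3), while the mesenchymal filament Vim did not pass the test (2492 ± 162 and 2496 ± 138 CPM), except without control replicate 3 (0.14, adjusted p = 0.0469).

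Genes of mesothelium and ovarian surface epithelium did not move as 1 group: 10 of 23 were higher and 7 lower, with a median of 0.07. Upk3b, a mesothelial uroplakin, stood at 282, 263 and 303 CPM in controls and 934, 995 and 941 CPM in libraries labelled Cd276KO, and Upk1b rose by 0.78 in log2 against the direction of chromosome 16. The factor Wt1 rose by 0.31 in log2, Emx2 fell by 1.93 on the log2 scale, and Msln did not pass the test (-0.02). Aldh1a1, a retinoic acid producing enzyme, rose from 10.8 ± 0.348 to 33.0 ± 0.758 CPM (SD, n = 3). Markers of oviduct epithelium summed to 12 to 13.3 CPM in controls and 4.52 to 5.00 CPM in libraries labelled Cd276KO. Of the 3 tested only 1 was lower, by more than 2-fold, and 2 did not pass the test, with a median of 0.28.

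Positional identity genes of the Hoxc cluster were low. Of 7 Hoxc genes tested 6 were lower and 1 higher, with a median of -1.22, and all lie on chromosome 15, whose median was -0.10. Hoxc13 stood at 17.5, 20.5 and 19.03 CPM in controls and 8.03, 8.05 and 8.94 CPM in libraries labelled Cd276KO. In the Hoxa cluster 1 of 8 was lower and 2 higher, in Hoxd 1 of 3 was lower, and 8 of the 10 Hoxb genes had no read in the 6 libraries. Of 13 imprinted genes 5 were lower and 3 higher: Sgce had 131 reads in controls and 0 in libraries labelled Cd276KO, at least 40.4-fold lower, and Usp29, a neighbour of Peg3, had 0 and 45, at least 16.2-fold higher. Among oncofetal and stem cell genes 7 of 10 were higher. Hmga2, a chromatin protein of embryonic tissue, stood at 113, 120 and 93.7 CPM against 284, 297 and 273 CPM, and Mycn rose by 1.43 in log2. In the list of DNA methylation and Polycomb genes 5 of 18 were higher and 5 lower, none by more than 2-fold.

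Ribosomal protein genes rose together by a small amount. Of 38 listed genes tested 35 were higher and 2 lower, with a median of 0.46, and the lower ones, Rps4x and Rpl39, lie on X. Rpl10, also on X but not in the list, fell from 1186 ± 89.3 to 773 ± 34.5 CPM, by 0.54 on the log2 scale. Rpl39 lost its call without control replicate 1 (adjusted p = 0.0555) or control replicate 3 (0.0932). Rps2 stood at 3162, 3202 and 3616 CPM in controls and 4229, 4333 and 4704 CPM in libraries labelled Cd276KO, and Rpsa at 2423, 2217 and 2476 CPM against 3571, 3378 and 3404 CPM. The elongation factor Eef1a1 rose from 9751 ± 398 to 11707 ± 307 CPM (SD, n = 3) and the nucleolar protein Npm1 by 0.50 in log2. Ribosomal protein genes have many processed pseudogenes, so their counts depend on how shared reads were handled.

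Mitotic genes rose slightly and the drivers of G1 were split. Of 26 genes of G2 and M phase 20 were higher and none lower, with a median of 0.29: the kinase Cdk1 stood at 313, 321 and 315 CPM in controls and 409, 395 and 402 CPM in libraries labelled Cd276KO. Of 32 genes of G1 and S phase 14 were higher and 8 lower. Ccne1 and E2f1, a cyclin and a transcription factor of S phase entry, fell by 1.00 and 0.88 on the log2 scale, and Ccne2 rose by 0.79 in log2. In the p53 list 11 of 26 were higher and 8 lower. The death receptor Fas, on chromosome 19, fell from 16.2 ± 1.59 to 4.37 ± 0.813 CPM (SD, n = 3).

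Stress programmes did not share a direction. ATF4 drives genes of amino acid supply when translation initiation is restrained, and of 23 such genes 16 were lower and 1 higher. Trib3 stood at 83.7, 83.5 and 84.4 CPM in controls and 29.9, 29.2 and 31.4 CPM in libraries labelled Cd276KO, and Nupr1, Chac1 and Ddit3 fell by 1.45, 1.28 and 1.20 on the log2 scale. Of 15 chaperones of the endoplasmic reticulum 4 were higher and 3 lower, with Manf at 0.63. Of 14 heat shock chaperones 7 were higher and 3 lower, and the small chaperone Hspb1 rose from 39.4 ± 3.72 to 92.0 ± 10.9 CPM (SD, n = 3). NRF2 and glutathione genes were split, with 11 of 27 lower and 7 higher. The glutathione transferase Gstm1 fell by 2.92 and Osgin1, an oxidative stress gene, by 2.02 on the log2 scale. Gstm genes are close copies of each other. Drug efflux transporters were lower in 3 of 6 and higher in 3, with a median of -0.24, and without members on X, 16 and 19 they were lower in 1 of 4 and higher in 3, with a median of 0.48. Abcc1 (-0.90) and Abcc5 (-1.29), both on chromosome 16, fell, and Abcg2 rose by 0.65 in log2.

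Of 27 actin and contractile genes tested 10 were lower and 6 higher, and without members on X, 16 and 19 the counts were 5 and 5 of 21. The nonmuscle myosin Myh10, on chromosome 11, fell from 42.6 ± 1.88 to 7.85 ± 0.461 CPM (SD, n = 3), and the membrane-actin linker Ezr rose by 0.82 in log2.

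The ID8 differences were often unlike those of the HM-1 cultures. The difference between the 2 lines' effects was tested as an interaction over 12 libraries, and 40.4% of 14208 genes passed. Of 28 genes compared by name 24 passed. These 28 were picked with earlier results known, and the ID8 value enters the test, so their share does not measure how far the lines differ. Id3 was 2.01 further up in log2 in ID8 than in HM-1, where its own log2 fold change was -0.30, and Spry4 was 1.96 further up. The interaction was -1.58 for Pgk1 and -2.42 for Ifitm3 against HM-1, where neither passed the test (0.12 and 0.12). Csf1, Spp1 and the antigen presentation gene Tap1 were lower in both lines, with HM-1 log2 fold changes of -0.97, -0.85 and -1.285. Gbp2, lower in ID8, was higher in HM-1 (1.18). Cd276 itself differed between the lines: it went from 86.4 to 46.6 CPM in HM-1, a log2 fold change of -0.85. In ID8 it did not pass the test (-0.04), and the interaction was 0.80, so the fall seen in HM-1 was nearly absent in ID8. HM-1 control replicate 1 stood apart from its group, and without it all 24 kept their call and sign.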

How the data were processed

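RNA from cultured cells was sequenced and deposited by the authors as whole-number read counts per gene. Trim Galore, STAR, HTSeq and the builds GRCm38 and mm10 are named per the submitters' processing notes; settings, versions, annotation and strandedness are not given there. Of 54752 identifiers, 54723 matched GENCODE gene models once versions were ignored, and positions come from there.

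The 3 libraries labelled Cd276KO were compared with the 3 controls by a two-sided edgeR 4.0.16 quasi-likelihood test (R 4.3.3) with TMM scaling, edgeR's own filter on low counts, Benjamini-Hochberg adjustment over all genes tested and a threshold of 0.05. The procedure was tested on simulated data with far fewer changed genes than were called here and no shift of whole chromosomes. That setting does not test the scaling for this comparison. CPM values were computed from each library's gene-assigned total, so CPM ratios differ slightly from the fitted fold changes. Folds against 0 reads use a limit of 3 counts over the group, and exact 95% intervals and these limits cover counting error only. The labels call the replicates biological without saying how they were separated, and the spread that p-values rest on may therefore be technical. Without strand information, reads of overlapping genes cannot be told apart.

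Members and lists were chosen with earlier results of these data known. Named were Cd276, the 20 higher and 20 lower called genes with the largest folds (at least 5 CPM, no overlap), the 10 genes each way with the largest CPM difference, and list members by largest fold or level in each role. Genes that escape X inactivation, X genes that rose, and the most abundant genes of chromosomes X, 16 and 19 were chosen after their values were seen. Promoter windows of RefSeq (GRCm38.p6) matched 9573 of the tested genes. Alternatives were DESeq2 1.42.0, limma 3.58.1 voom, other scalings and filters, a replicate block, all 12 culture libraries and each library left out. A few genes are not reported here.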

Additional observations from a re-analysis of the deposited data

Results flagged for a closer look

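The difference of the libraries labelled Cd276KO from control was unlike that of the HM-1 cultures for 24 of 28 genes compared, by the edgeR interaction test over 12 libraries (40.4% of all genes tested). The 28 were picked with earlier results known and many changed strongly in ID8, so the 2 shares cannot be compared. Values are the ID8 minus the HM-1 log2 fold change. Further down in ID8 were Kit (-9.56), Col5a2 (-9.24), Gbp2 (-4.41), Grem1 (-3.51), Col3a1 (-3.33), Ifitm3 (-2.42), Tap1 (-2.08), Thbs1 (-1.75), Pgk1 (-1.58), Fn1 (-1.32), Ldha (-0.86), Spp1 (-0.68) and Csf1 (-0.34). Further up, or less far down, in ID8 were Cldn3 (7.75), Id3 (2.01), Spry4 (1.96), Podxl (1.91), Hmga2 (1.55), Id1 (1.51), Rps2 (0.96), Rpsa (0.81), Cd276 (0.80), Dusp6 (0.75) and Rplp0 (0.50).

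Some of these rest on genes that HM-1 hardly expressed: mean CPM in HM-1 controls was 0.0422 for Kit, 0.0131 for Col5a2 and 0.231 for Grem1. Fitted values for such genes depend on the prior count. Without HM-1 control replicate 1, which stood apart from its group, all 24 kept their call and sign, and the largest move was 0.36, for Kit. Peg3, Upk3b, Lin28a and Cxcl12 did not pass, and HM-1 controls held no read of any of the 4.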

How the results depend on the processing

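The number of genes called ranged from 6079 with all 12 culture libraries in the fit to 8444 with limma voom, against 7849 as reported. DESeq2 called 7415, and leaving out each library gave 7115 to 7877. Calls beyond 2-fold were 1428 as reported, 1079 with a minimum of 1 CPM in 3 libraries, 1921 with no filter and 1455 to 1556 with a library left out. The share of calls that were higher lay between 44.8% and 49.3%. Mitochondrial respiration had 29 members higher as reported, 10 with all 12 libraries and 23 to 33 with a library left out. Actin genes had 10 lower as reported and 5 without members on X, 16 and 19, a count added after seeing the data. Median log2 fold changes moved by more than their spread as follows, with the cause not tested. With no filter they were -0.76 for X, -0.515 for 16, 0.237 for 19, -0.261 for 1 and -0.176 for 15. With scaling from genes off X, 16 and 19, also added after seeing the data, they were -0.51 for 16, 0.238 for 19 and -0.115 for 15. Chromosome 16 gave -0.504 with upper-quartile scaling and -0.509 with the 1 CPM minimum. With a library left out the medians ran from -0.821 to -0.786 for X, -0.514 to -0.476 for 16, 0.249 to 0.26 for 19, -0.216 to -0.18 for 1, -0.145 to -0.126 for 3 and -0.12 to -0.087 for 15. None of these changed sign. The difference between lines was called for 7143 genes without HM-1 control replicate 1 and for 5401 with a replicate block within line, against 5747. Among 1022 named genes, 153 lost their call under at least 1 alternative, 69 gained one, and none changed sign while called. With the replicate number as a block, ID8 calls came to 8329. Same-numbered libraries correlated at 0.15, 0.0369 and 0.149, and control 2 correlated best with the first library labelled Cd276KO (0.0783), so the numbers were not taken as pairs. With this block Rpl39 lost its call (adjusted p = 0.181).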
